A study of Mus musculus with 14 samples.

Results

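The kidneys of mice at 1 day after renal ischemia/reperfusion injury (IRI) were compared with kidneys at day 0 by bulk RNA sequencing, a method that pools the RNA of every cell in the tissue. The comparison takes the 5 libraries titled as day 1 and the 4 titled as day 0, 9 of the 14 libraries of the study, which also holds 5 libraries of day 3. Every library came from the kidney of a male C57/B6 mouse of 8 weeks, with no transgene or further treatment named in the labels. Day 0 kidneys are called controls in the library names, and the sources used here do not state whether those mice had a sham operation. Each sample is 1 library, and the labels do not say whether a library is 1 mouse, so that p-values measure the spread between these libraries. The 5 libraries of day 1 were of unlike kinds. The number in the library name has 3 digits in replicates 1 and 2 of day 1 and 1 digit in replicates 3 to 5 and in all of day 0. These are called 3-digit and 1-digit libraries below, and values marked so are of day 1. What the number stands for is not given.

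Renal IRI stops the blood flow to the kidney and then restores it. The epithelial cells of the proximal tubule and of the thick ascending limb of Henle's loop work close to the limit of their oxygen supply and are the cells most injured. In the first day injured tubules are known to switch on stress and repair genes, to shed their transport and metabolic program, and to attract neutrophils, while the division of surviving cells mostly comes later.

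Reads on genes ranged from 16485636 to 17935503 per library at day 0 and from 13399023 to 20476979 at day 1. Levels are given as CPM, which is reads of a gene per 1e+06 reads on genes after TMM scaling, without correction for gene length, so that a level is compared between libraries and not between genes. Kidney genes marked all libraries as kidney. Umod, the uromodulin of the thick ascending limb, was at 4331–6567 CPM at day 0 and 2844–5226 at day 1, and the collecting duct water channel Aqp2 at 358–655 and 172–496. In a principal component analysis of the 9 libraries the first component, with 62.7% of the variance, parted the days, and the second, with 21.6%, parted the 3-digit libraries of day 1 from its 1-digit libraries.

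Of 14300 genes tested, 6020 (42.1%) differed between day 1 and day 0 at an adjusted p-value under 0.05, 3339 higher (23.3%) and 2681 lower (18.7%). The median log2 fold change over all genes was 0.01. Among the called genes 1695 (11.9% of those tested) rose and 1268 (8.87%) fell by a log2 fold change of at least 1. The levels of the day 1 libraries did not overlap with those of day 0 in 6005 genes (42.0%). Between the 3-digit and the 1-digit libraries of day 1 themselves 5001 genes (35.0%) differed, 2656 higher in the 3-digit libraries (18.6%) and 2345 lower (16.4%). Taken alone against day 0, the 1-digit libraries gave 8369 called genes (58.5%), 4131 higher (28.9%) and 4238 lower (29.6%), and the 3-digit libraries 5954 (41.6%), 3236 higher (22.6%) and 2718 lower (19.0%). All day 0 libraries have 1-digit numbers, so that for the 3-digit libraries the day and the kind of library cannot be told apart. With total counts in place of TMM the median over all genes moved from 0.03 to 0.24 in the comparison of the kinds, where 3909 genes were then higher and 1439 lower in the 3-digit libraries, from 0.02 to 0.12 in the 3-digit libraries against day 0 (3782 higher and 2154 lower), and from -0.05 to -0.16 in the 1-digit libraries against day 0 (3543 higher and 4807 lower). Leaving out day 1 replicate 2 left 1997 genes that differed between the kinds. Without replicate 1 or replicate 2, the 3-digit libraries against day 0 gave 3420 and 3749. The 1-digit and the 3-digit comparisons share the same day 0 libraries. For genes and lists in which the kinds part, values of both kinds are given for many but not all.

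**Figure D1:**
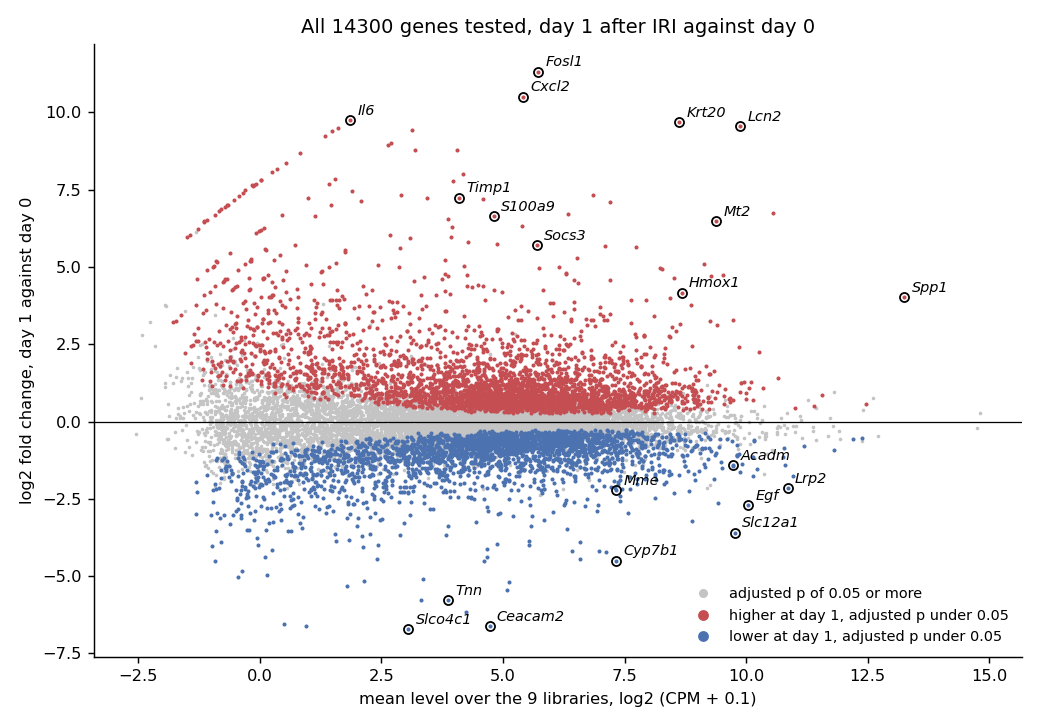
Log2 fold change of day 1 against day 0 (vertical axis) against the mean level over the 9 libraries (log2 of CPM plus 0.1, horizontal axis) for the 14300 genes tested. Each point is a gene, red where higher and blue where lower at an adjusted p-value under 0.05, and 20 genes are circled and named. Rises reached further than falls. The fitted folds of genes with next to no reads at day 0, such as Fosl1, Cxcl2 and Il6, depend on the added count of the fit.

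Most genes that mark injured tubules rose. Of the 17 genes tested on a list of tubular injury genes, 12 were higher at day 1 and 0 lower, with a median log2 fold change of 2.16. Lcn2, which encodes the iron-carrier lipocalin NGAL used as a urine marker of kidney injury, was at 2.13, 3.24, 1.96 and 1.63 CPM at day 0, at 2777 and 1829 in the 3-digit libraries and at 479.8, 1446 and 1908 in the 1-digit libraries of day 1. All 5 libraries lay above every day 0 library, and the rise was 9.55 ± 1.09 (log2 fold change ± SE, adjusted p = 3.6e-05), 751-fold. Spp1, the secreted matrix protein osteopontin, rose from 940.2, 961, 1008 and 1231 CPM to 24398 and 29960.2 in the 3-digit and 6344, 10694 and 12065 in the 1-digit libraries (4.01 ± 0.59, adjusted p = 2.2e-04). It was higher in the 3-digit libraries than in the 1-digit ones (1.49, adjusted p = 0.034). Krt20, a keratin of simple epithelia, was at 0.0575, 0.471, 0.379 and 2.54 CPM at day 0 and at 891 and 364 (3-digit) and 359.6, 1204 and 725 (1-digit) at day 1, among the 10 largest rises of all genes (9.68 ± 1.18, adjusted p = 5.9e-05).

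On the list of 17 tubular injury genes 12 were higher and 1 lower in the 1-digit libraries than at day 0. The direct test called 4 higher and 1 lower with 3 digits than with 1. Havcr1, which encodes the proximal tubule injury marker KIM-1, parted the kinds of library. It was at 89.8, 119, 104 and 111 CPM at day 0 and at 1860.1 and 3014 in the 3-digit libraries, but at 30.5, 151 and 45.8 in the 1-digit libraries, of which 2 lay below every day 0 library. Over all 5 libraries it rose by 3.27 ± 1.12 on the log2 scale (adjusted p = 0.03). The call was lost when any day 0 library or either 3-digit library was left out (adjusted p between 0.055 and 0.074). With 3 digits it rose by 4.52 (adjusted p = 1.2e-04), with 1 digit the value was -0.48 (adjusted p = 0.45), and the difference was 5.01 ± 0.69 (adjusted p = 3.7e-04). Lcn2 differed between the kinds by 0.85 with an adjusted p of 0.46.

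Genes of epithelial remodelling were among the rises. Of 20 keratins and junction genes 9 rose and 1 fell (median 0.86). Krt18, a filament of simple epithelia, rose from 15.2–45.1 to 163–297 CPM (3.29 ± 0.33, adjusted p = 1.8e-05), and the tight junction gene Cldn4 from 11.6–33.4 to 203 and 191 in the 3-digit and 743, 709 and 868 in the 1-digit libraries (4.92 ± 0.71, adjusted p = 1.9e-04). Annexins and S100 genes, which encode calcium-binding proteins, gave 15 rises among 19 (median 1.46), with Anxa2 at 72.7–90.3 CPM before and 334–755 after (2.92 ± 0.24, adjusted p = 3.6e-06). Of 26 genes of actin remodelling 23 rose and 0 fell (median 1.07), with 20 rises and 2 falls in the 1-digit and 23 and 0 in the 3-digit libraries. The direct test called 9 higher and 2 lower with 3 digits. Some keratins are also made by urothelium, the lining of the renal pelvis. The summed level of 12 urothelium markers was 26.3, 15.1, 19.6 and 83.6 CPM at day 0, 34.4 and 146 in the 3-digit and 14, 15 and 21.4 in the 1-digit libraries, so that day 0 replicate 4 and day 1 replicate 2 were high. Of 11 urothelium markers tested 0 were higher and 2 lower in the 1-digit libraries than at day 0, and 2 higher and 0 lower in the 3-digit libraries. The direct test called 6 higher with 3 digits, and the part of urothelium in the keratin values was not tested. Without day 0 replicate 4 or without day 1 replicate 2 the keratin list gave 10 rises each, and the injury list 12 and 10.

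**Figure D2:**
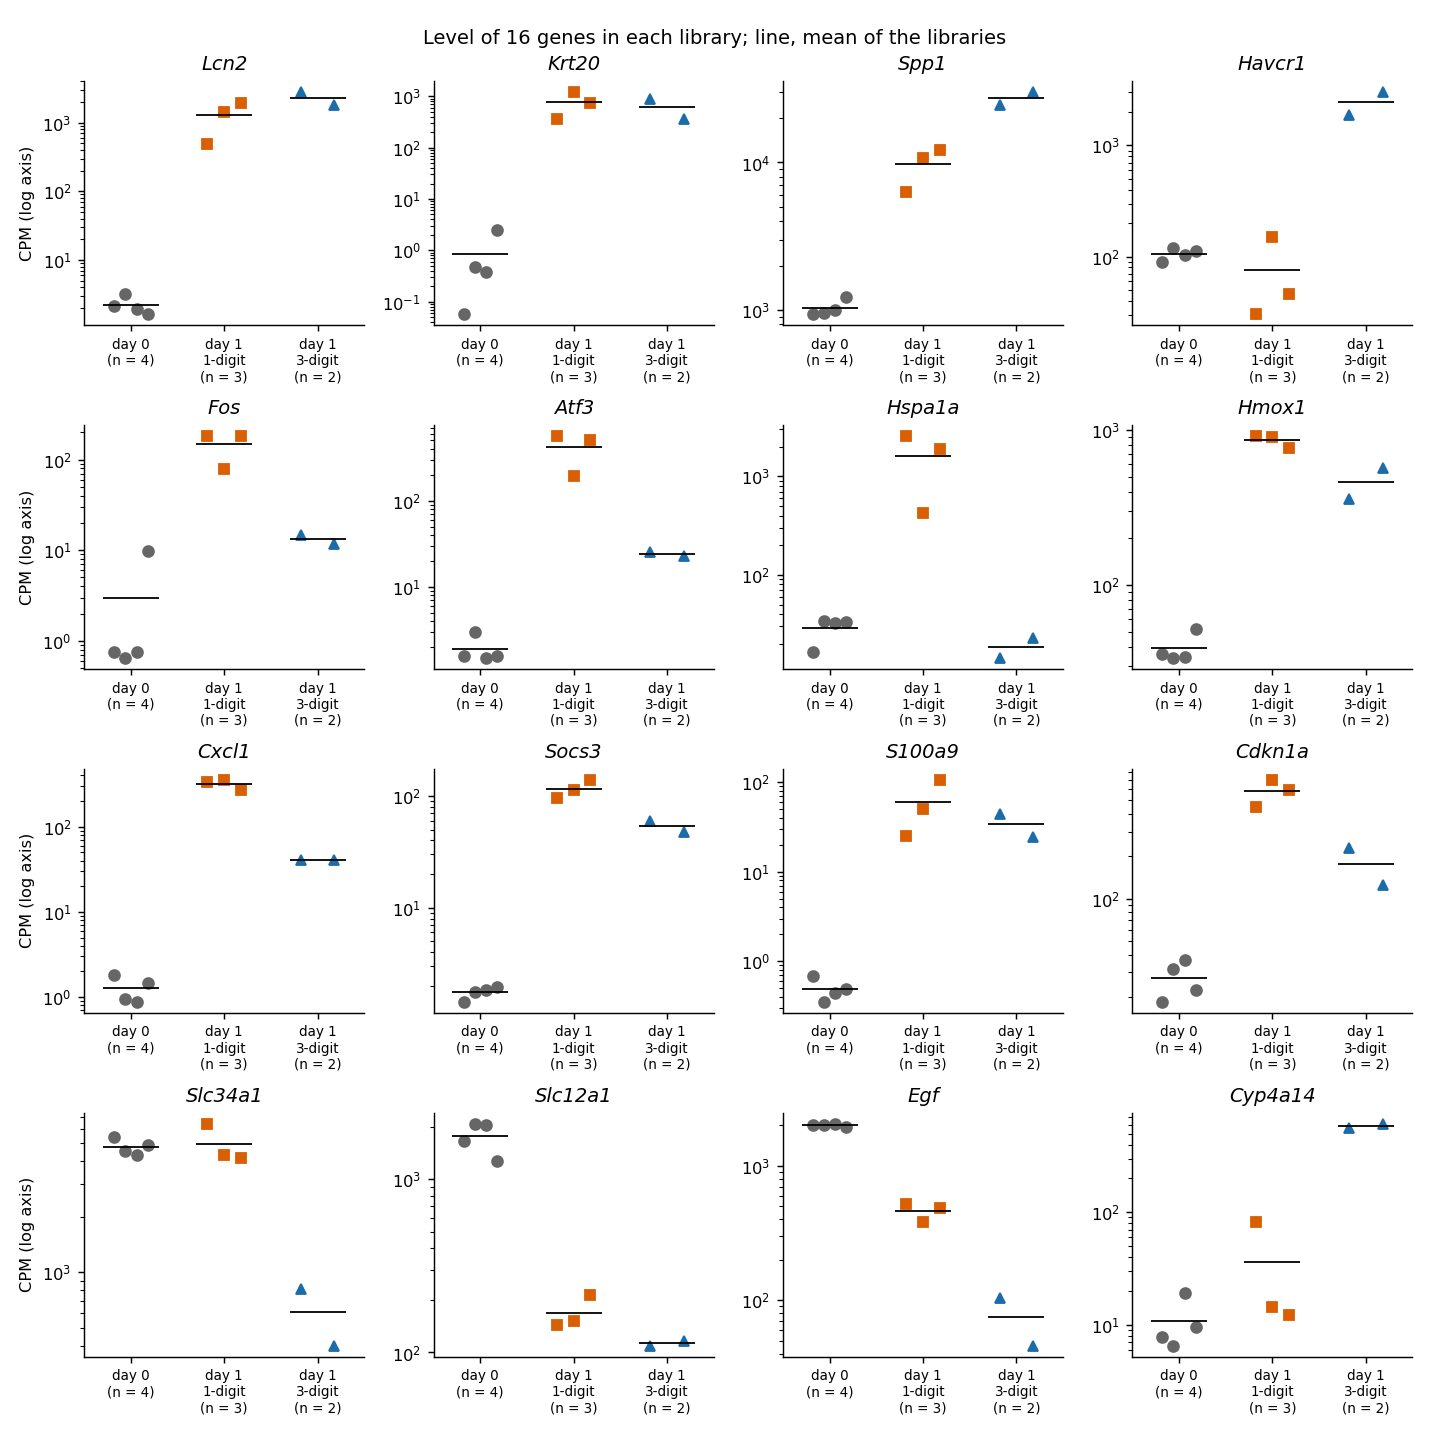
Level of 16 genes in each library in CPM on a log axis, at day 0 (grey circles), in the 1-digit libraries of day 1 (orange squares) and in its 3-digit libraries (blue triangles). The line is the mean of the libraries. Lcn2, Krt20, Socs3, S100a9 and Cdkn1a rose in every library of day 1, Hspa1a was high in the 1-digit libraries and Havcr1 and Cyp4a14 in the 3-digit libraries, and Slc34a1 was low in the 3-digit libraries.

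Immediate early genes, which are transcribed within minutes of a stimulus, were mostly higher at day 1 than at day 0. Of 24 tested 22 rose and 0 fell, with a median of 3.26 (3.18 with genes of at most 3 reads in every day 0 library set to their lower bound). In the 1-digit libraries 22 rose (median 3.51) and in the 3-digit libraries 15 (median 2.13), with 0 falls in both. Atf3, a stress-induced transcription factor, rose from 1.61, 3, 1.52 and 1.57 CPM to 25.3 and 22.9 in the 3-digit and 563, 193 and 509 in the 1-digit libraries (7.08 ± 1.11, adjusted p = 3.3e-04). Fos, a subunit of AP-1, went from 0.748, 0.647, 0.758 and 9.86 to 14.6 and 11.8 (3-digit) and 183, 79.2 and 182 (1-digit) at day 1 (4.97 ± 1.09, adjusted p = 0.0029), with day 0 replicate 4 close to the 3-digit libraries. Fos did not pass where only the 3-digit libraries of days 1 and 3 were kept beside day 0 (2.14, adjusted p = 0.097). Egr1 stood at 5.41, 2.47, 2.4 and 19.7 before and at 106 and 51.4 (3-digit) and 716, 379 and 638 (1-digit) after (5.66 ± 0.96, adjusted p = 5.8e-04). In all of these the 1-digit libraries lay several-fold above the 3-digit libraries. Of the 24 genes 17 were lower in the 3-digit libraries and 1 higher, beside 16.4% and 18.6% of all genes. Myc, a driver of growth, was raised in both kinds, at 9.38, 6.71, 5.75 and 5.44 CPM before, 82.8 and 71.6 in the 3-digit and 56.8, 56.6 and 61 in the 1-digit libraries (3.27 ± 0.28, adjusted p = 5.2e-06). The AP-1 subunit Fosl1 had at most 1 read in any day 0 library and 32.5–162 CPM at day 1, at least 526-fold higher against a floor of 3 counts per library.

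Heat shock genes parted the kinds of library. Hspa1a, which encodes the inducible chaperone HSP70, was at 16.5, 34, 32.6 and 33.1 CPM at day 0, at 2572, 421 and 1891 in the 1-digit libraries and at 14.4 and 22.9 in the 3-digit libraries, 1 of which lay within and 1 below the range of day 0. Against day 0 the former gave 5.81 on the log2 scale (adjusted p = 4.4e-05), the latter -0.64 (adjusted p = 0.55), with a difference of -6.44 ± 1.09 (adjusted p = 0.0011). The summed level of the heat shock list was 7678, 8852, 8371 and 7138 CPM at day 0, 28084, 15676 and 24475 in the 1-digit and 6203 and 7251 in the 3-digit libraries. Of 19 members 15 rose and 1 fell in the 1-digit libraries, and 2 rose and 3 fell in the 3-digit libraries. The direct test called 13 lower with 3 digits. Hspb1, a small heat shock protein that binds actin, rose in both, from 13.7–32.5 CPM to 114 and 117 (3-digit) and 215, 247 and 264 (1-digit) at day 1 (3.27 ± 0.36, adjusted p = 3.0e-05).

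Genes of the unfolded protein and integrated stress response gave 8 rises and 3 falls among 20 (median 0.16). Their medians were 0.46 in the 1-digit and -0.55 in the 3-digit libraries, and 13 of them were lower in the 3-digit libraries. The transcription factor Atf4 rose from 98.9–124 CPM to 236 and 168 (3-digit) and 584, 802 and 596 (1-digit) at day 1 (2.06 ± 0.42, adjusted p = 0.002), and its targets Ddit3 and Trib3 rose by 1.74 and 3.70 on the log2 scale (adjusted p = 7.5e-04 and 2.3e-04). Sdf2l1, a chaperone of the endoplasmic reticulum, fell from 22.6–35.4 to 7.4–11.6 CPM (-1.61, adjusted p = 8.5e-04). Hbegf, a ligand of the EGF receptor that is induced by stress, rose from 17.8–20.4 to 87.7 and 53.8 (3-digit) and 380.3, 213 and 341 (1-digit) at day 1 (3.49 ± 0.49, adjusted p = 1.6e-04).

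Some antioxidant and metal-binding genes rose as well. Hmox1, which encodes heme oxygenase-1 that degrades heme, went from 36, 33.8, 34.2 and 52 CPM to 358 and 571 in the 3-digit and 915, 907 and 763 in the 1-digit libraries (4.17 ± 0.45, adjusted p = 2.5e-05). The metallothioneins Mt1 and Mt2, which bind zinc and copper, rose by 4.70 ± 0.63 and 6.47 ± 0.70 (adjusted p = 1.2e-04 and 2.5e-05), Mt2 from 10.7–17.4 to 667–2047 CPM. On the list of NRF2 targets 7 of 17 rose and 2 fell (1 without day 0 replicate 4), with 7 rises and 3 falls in the 1-digit and 12 and 1 in the 3-digit libraries. Nqo1, a classical target, rose in the 3-digit libraries (232 and 217 CPM against 42.3–51.7 at day 0, adjusted p = 0.0027), was at 31.3, 56.3 and 39.3 in the 1-digit libraries, and differed between the kinds by 2.41 ± 0.54 (adjusted p = 0.0048).

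Targets of p53 gave 14 rises and 0 falls among 18 (median 0.98), with 12 rises and 0 falls in the 1-digit and 9 and 2 in the 3-digit libraries. Of them 9 were lower and 4 higher with 3 digits than with 1. The cell cycle inhibitor Cdkn1a, p21, rose from 18.5, 31.7, 36.4 and 22.4 CPM to 229 and 126 (3-digit) and 446, 699.8 and 593 (1-digit) at day 1 (3.94 ± 0.64, adjusted p = 4.1e-04) and Mdm2, the ligase that degrades p53, from 44–58.5 to 64.3 and 63.8 (3-digit) and 118, 125 and 119 (1-digit) at day 1 (0.92 ± 0.24, adjusted p = 0.0068). Mdm2 did not pass where only the 3-digit libraries of days 1 and 3 were kept beside day 0 (0.31, adjusted p = 0.098). Among 22 genes of cell death machinery 9 rose and 2 fell. Mlkl, the executor of the lytic death called necroptosis, was at 1.04, 0.765, 1.14 and 1.03 CPM before and 33.8 and 22 (3-digit) and 5.72, 12.5 and 10.7 (1-digit) after (4.09 ± 0.53, adjusted p = 8.2e-05). The kinase Ripk3, which activates it, rose by 2.71 (adjusted p = 2.1e-04) and the mitochondrial flavoprotein Aifm1 fell by 1.96-fold (adjusted p = 0.005). Of 16 targets of the hypoxia-inducible factors 4 were higher and 2 lower, near the share over all genes, with 7 and 3 in the 1-digit (median 0.56) and 4 and 3 in the 3-digit libraries (median -0.10). The vasodilator peptide Adm rose from 7.02–9.41 to 16.5–35.1 CPM (1.67, adjusted p = 4.1e-04) and the constrictor peptide Edn1 from 0.942–1.94 to 9.13–17.6 (3.16, adjusted p = 2.5e-05).

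Chemokine genes rose in the injured kidney. Of 16 CXC chemokines and receptors 12 rose and 1 fell (median 2.41, or 2.20 with bounds set likewise). Cxcl1 and Cxcl2 attract neutrophils. Cxcl1 was at 1.84, 0.942, 0.884 and 1.45 CPM at day 0, 40.1 and 41.1 in the 3-digit and 331, 354 and 267 in the 1-digit libraries (7.32 ± 0.91, adjusted p = 6.5e-05). Cxcl2 had at most 2 reads in a day 0 library and reached 3.61 and 1.91 (3-digit) and 134, 131 and 109.9 (1-digit) CPM, at least 423-fold higher. Both were lower with 3 digits than with 1, with a difference of -2.97 ± 0.57 for Cxcl1 and -5.51 ± 0.64 for Cxcl2 (adjusted p = 0.0021 and 1.7e-04). Cxcl10, which is induced by interferon, rose in the 1-digit libraries (1.2–1.78 CPM at day 0, then 12.5, 6.86 and 14.5, adjusted p = 3.3e-04) and was at 2.21 and 2.36 in the 3-digit libraries. Cxcl12, a homeostatic chemokine, fell from 101–156 to 37.5–47.2 CPM (-1.69 ± 0.25, adjusted p = 2.2e-04).

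The promoters of Cxcl1, Cxcl2, Cxcl10 and Tnfaip3, which encodes the feedback inhibitor A20, are shown to place the kB site, the letters bound by NF-kB. They were picked because their windows hold a match, and most promoters of the CXC list hold none. Cxcl1, Cxcl2 and Tnfaip3 rose in both kinds of library and Cxcl10 in the 1-digit libraries, with 0.60 in the 3-digit libraries (adjusted p = 0.43). The windows were taken from RefSeq sequences on GRCm38.p6 and run from 250 bases before to 50 bases after a gene start, with matches in capitals and overlapping matches of both strands joined. They are at chr5:90890995-90891294 (plus strand) for Cxcl1, chr5:90903649-90903948 (plus strand) for Cxcl2, chr5:92348840-92349139 (minus strand) for Cxcl10 and chr10:19015361-19015660 (minus strand) for Tnfaip3.
Cxcl1: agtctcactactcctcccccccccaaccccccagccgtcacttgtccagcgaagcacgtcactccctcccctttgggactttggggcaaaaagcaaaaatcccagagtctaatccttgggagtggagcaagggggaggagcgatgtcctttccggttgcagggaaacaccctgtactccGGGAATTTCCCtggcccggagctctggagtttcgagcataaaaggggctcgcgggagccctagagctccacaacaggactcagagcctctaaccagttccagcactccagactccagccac
Cxcl2: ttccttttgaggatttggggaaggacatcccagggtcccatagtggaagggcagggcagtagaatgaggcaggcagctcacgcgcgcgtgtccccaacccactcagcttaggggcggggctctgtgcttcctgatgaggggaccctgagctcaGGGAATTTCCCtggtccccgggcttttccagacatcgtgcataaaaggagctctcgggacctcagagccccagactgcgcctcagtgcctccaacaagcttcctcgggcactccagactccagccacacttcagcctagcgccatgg
Cxcl10: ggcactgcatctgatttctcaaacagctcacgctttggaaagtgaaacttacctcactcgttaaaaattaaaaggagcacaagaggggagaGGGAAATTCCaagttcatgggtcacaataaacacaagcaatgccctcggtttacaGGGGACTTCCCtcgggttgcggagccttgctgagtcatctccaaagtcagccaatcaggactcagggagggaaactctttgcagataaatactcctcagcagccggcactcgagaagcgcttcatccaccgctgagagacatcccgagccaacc
Tnfaip3: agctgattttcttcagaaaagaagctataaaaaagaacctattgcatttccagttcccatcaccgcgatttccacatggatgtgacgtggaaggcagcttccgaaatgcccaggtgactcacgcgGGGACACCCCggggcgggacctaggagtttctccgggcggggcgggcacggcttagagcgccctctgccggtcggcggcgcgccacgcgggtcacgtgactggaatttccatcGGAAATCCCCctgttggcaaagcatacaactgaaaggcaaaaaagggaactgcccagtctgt
A kB site was found in 4 of the 15 promoters of the CXC list (26.7%), in 8 of 29 of the IL-1, TNF and NF-kB feedback list (27.6%) and in 2779 of 32851 promoters of all genes (8.46%). Its share was also above that of all genes in the immediate early list (6 of 25, 24%) and in the heat shock list (4 of 20, 20%). For the immediate early list, 6 of 25 promoters (24%) held a CArG box against 1.63% of all promoters, and 4 (16%) held a cAMP response element (TGACGTCA or TGACGCAA) against 2.26%. Heat shock elements (the blocks GAA, TTC and GAA, or TTC, GAA and TTC, with any 2 bases between blocks) were found in 5 of 20 promoters of the heat shock list (25%) and in 0.603% of all promoters. Both strands were searched in every case. Promoters were found for 15 of the 19 genes of the CXC list, 21 of 25, 19 of 24 and 14 of 19 of the others, and some genes have several. A match describes the letters of the window and is no measure of binding.

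Cytokines that act through gp130 and STAT3 rose with their feedback inhibitor. Il6 had no read in any day 0 library and 4.36, 2.27, 5.04, 4.52 and 15.5 CPM in replicates 1 to 5 of day 1, at least 35.2-fold higher. Lif rose from 0.235–0.518 to 17.6–42.6 CPM (6.28 ± 0.48, adjusted p = 2.4e-06), and Socs3, which shuts off STAT3 signalling, from 1.44, 1.77, 1.83 and 1.94 to 59.7 and 47.4 (3-digit) and 95.3, 114 and 139.8 (1-digit) at day 1 (5.71 ± 0.47, adjusted p = 3.6e-06). On the list 12 of 18 rose and 2 fell, 1 without day 0 replicate 4 (median 2.44, 2.06 with bounds). Of 22 genes of IL-1, TNF and NF-kB feedback 18 rose and 0 fell (median 2.34). Il1b, the cytokine IL-1β, rose from 0.442–0.883 to 3.27–9.89 CPM (2.89, adjusted p = 0.0035). Tnfaip3 rose from 5.62–7.32 to 18.5 and 16.6 (3-digit) and 45.5, 36.5 and 38.8 (1-digit) CPM (2.33, adjusted p = 2.2e-04). The decoy receptor Il1r2 was also higher, with at most 3 reads at day 0 and 2.5–27.5 CPM at day 1, at least 73.4-fold higher. The acute phase gene Saa1 had no read at day 0, 10.1 and 10.4 CPM in the 3-digit and 0.545, 0.514 and 0.402 in the 1-digit libraries.

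CC chemokines gave 9 rises and 1 fall among 15. The monocyte attractant Ccl2 rose from 0.302–1.12 to 2.45–9.81 CPM (3.00 ± 0.50, adjusted p = 4.9e-04). Ccl20 had at most 1 read at day 0, 3.02 and 3.91 CPM in the 3-digit and 0.477, 0.572 and 0.724 in the 1-digit libraries. The fall was that of Ccl28, a mucosal chemokine, which was at 30.1, 29.7, 12.1 and 381 CPM at day 0 and 6.2–30.6 at day 1, and without day 0 replicate 4 the call was lost (-0.93, adjusted p = 0.31) and the list gave 6 rises and 0 falls. Interferon-stimulated genes gave 6 rises and 0 falls among 23, a share of rises near the 23.3% of all genes. They gave 13 rises in the 1-digit libraries, above the 28.9% of all genes, and 5 in the 3-digit libraries, near the 22.6% there. Oasl1 led them, at 1.55, 2.12, 1.07 and 2.48 CPM before, 6.04 and 3.45 (3-digit) and 42.3, 62.2 and 78.6 (1-digit) after (4.40 ± 0.87, adjusted p = 0.0016). Isg15, a ubiquitin-like protein, rose by 1.83 (adjusted p = 0.015). It gave 2.26 with 1 digit (adjusted p = 0.002) and 0.79 with 3 digits (adjusted p = 0.28). Complement genes gave 2 rises and 1 fall among 18 (1 rise without day 0 replicate 4 or without day 1 replicate 2). These counts lay under the 23.3% higher and 18.7% lower of all genes. C3, the central component, was at 14–37.8 CPM at day 0, 74.7 and 163 in the 3-digit and 28.4, 16.4 and 15.7 in the 1-digit libraries, and differed between the kinds by 2.56 ± 0.44 (adjusted p = 0.0013).

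Neutrophil markers were nearly absent at day 0 and present in every library of day 1. Of 13 tested 12 rose, with a median of 6.55 (4.99 with 5 genes of at most 3 reads in every day 0 library set to their bound), and their summed level went from 2.59, 3.94, 1.71 and 2.06 CPM to 119 and 60 in the 3-digit and 75.2, 131 and 282 in the 1-digit libraries. S100a8 and S100a9, which form calprotectin, rose by 6.55 ± 1.11 and 6.64 ± 0.98 (adjusted p = 5.6e-04 and 2.2e-04), S100a9 from 0.69, 0.353, 0.442 and 0.484 to 44 and 24.2 (3-digit) and 25.1, 49.8 and 106 (1-digit) CPM. Retnlg, made by neutrophils, had at most 1 read at day 0 and 4.09–25.4 CPM at day 1. These markers were higher at day 1, as were the cytokine and chemokine genes above, and their part in those rises was not tested. Between the kinds of library 0 of 13 neutrophil markers differed, whereas Cxcl1 and Cxcl2 were lower with 3 digits. In bulk tissue more cells of a type and more RNA per cell cannot be told apart, nor fewer cells and less RNA.

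Of 19 macrophage markers 4 were higher and 1 lower (3 lower without day 1 replicate 2), beside 23.3% and 18.7% of all genes. In the 1-digit libraries 3 were higher and 6 lower, in the 3-digit libraries 7 and 1. Csf1r, the receptor that resident macrophages depend on, fell from 84, 98, 92.9 and 86.1 CPM to 26.1 and 30.4 (3-digit) and 33.5, 29.9 and 24.2 (1-digit) at day 1 (-1.65 ± 0.24, adjusted p = 1.9e-04). Cd68, a lysosomal protein of phagocytes, rose from 2.36, 2.18, 1.26 and 2.12 to 37 and 26.5 (3-digit) and 13.8, 22.6 and 18.4 (1-digit) at day 1 (3.57 ± 0.44, adjusted p = 6.1e-05). Adgre1, which encodes F4/80, was at 2.13, 12.4, 2.15 and 1.87 at day 0, 1.72 and 2.63 in the 3-digit and 0.477, 0.171 and 0.483 in the 1-digit libraries and did not pass the test (-2.04, adjusted p = 0.093), but did without day 1 replicate 2 (-2.66, adjusted p = 0.047) and with DESeq2 (adjusted p = 0.044). Day 0 replicate 2 was far above the other day 0 libraries. With 1 digit Adgre1 was at -3.64 (adjusted p = 0.0029) and with 3 digits at -1.09 (adjusted p = 0.29). The summed level of the macrophage markers was 164, 227, 167 and 146 CPM at day 0, 152 and 157 in the 3-digit and 99.9, 97.3 and 116 in the 1-digit libraries. Of T, B and NK cell markers 3 were above the filter on low counts, of which 1 rose and 1 fell. The T cell kinase gene Lck rose from 0.632–0.907 to 1.43–2.57 CPM (1.48, adjusted p = 0.0041) and the T cell gene Cd8a fell from 0.647–1.69 to 0.108–0.409 (-2.23, adjusted p = 0.0075). The summed level of the list was 4.03, 4, 4.17 and 6.95 CPM at day 0, 3.34 and 5.22 in the 3-digit and 4.63, 5.37 and 6.19 in the 1-digit libraries.

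**Figure D3:**
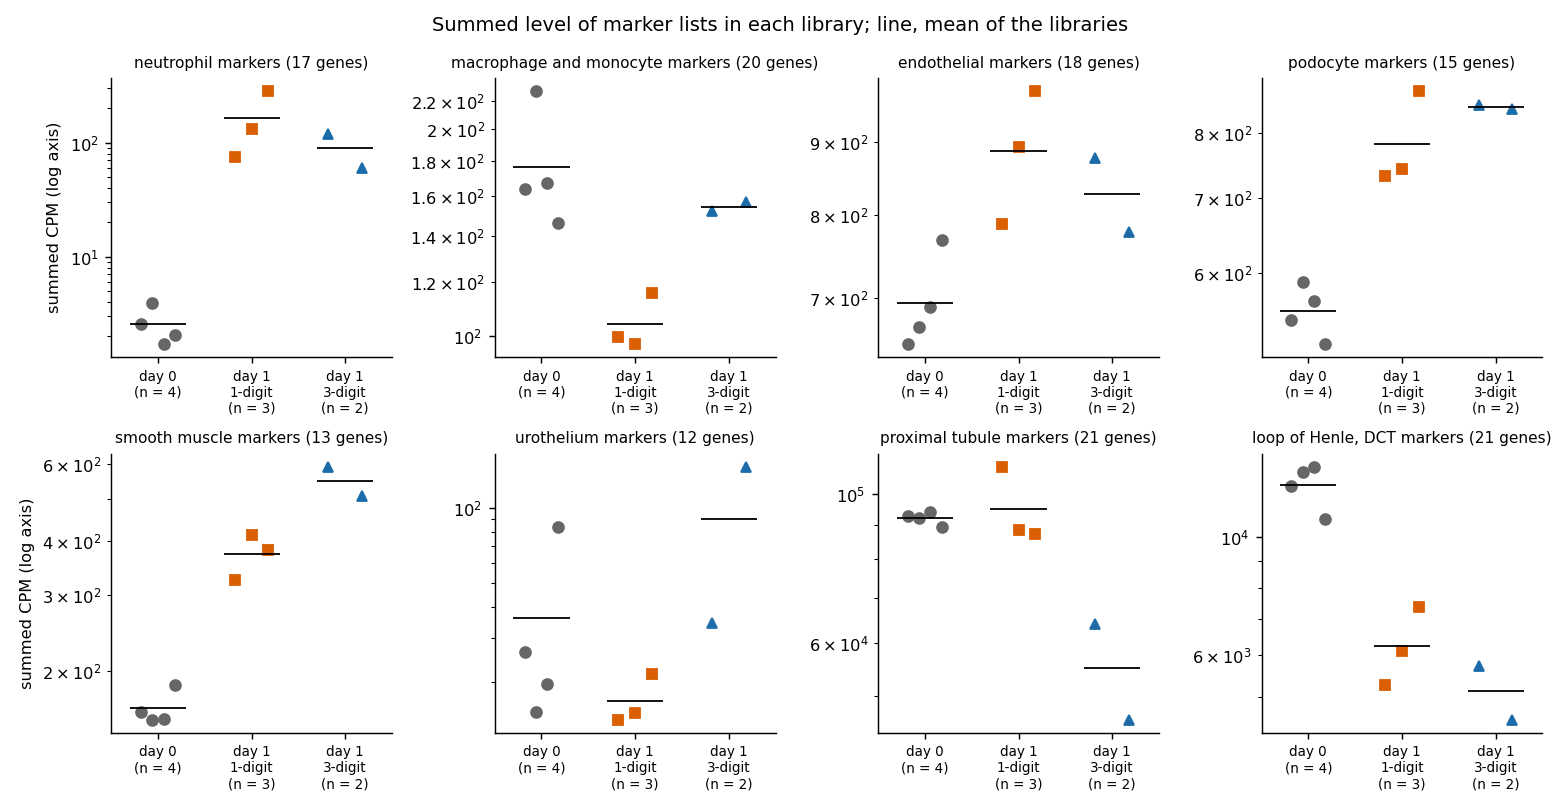
Summed level of 8 lists of cell type markers in each library in CPM on a log axis whose range differs between panels, with symbols as in the plot of single genes and the mean of the libraries as a line. Neutrophil markers rose in all 5 libraries of day 1. The sum of the proximal tubule markers was lower in the 3-digit libraries than in all others, and urothelium markers were high in day 0 replicate 4 and day 1 replicate 2.

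Markers of vessels and stroma gave a mixed picture. Of 18 endothelial markers 6 rose and 2 fell. Cdh5, the cadherin of endothelial junctions, rose from 23.3–30.2 to 49.4 and 37.6 (3-digit) and 96.9, 84.7 and 105 (1-digit) CPM (1.54 ± 0.35, adjusted p = 0.0037), while the angiopoietin receptor Tek fell from 37.4–45.1 to 19.2 and 28.6 (3-digit) and 6.54, 7.37 and 10.6 (1-digit) at day 1 (-1.52 ± 0.38, adjusted p = 0.0065). The actin-binding gene Tagln rose from 22.2–30.5 to 274 and 194 (3-digit) and 71.6, 121 and 116 (1-digit) at day 1 (2.64 ± 0.56, adjusted p = 0.0023) and the PDGF receptor Pdgfrb of pericytes from 19.2–25.1 to 86.5 and 79.1 (3-digit) and 47.8, 59.4 and 57.6 (1-digit) at day 1 (1.53 ± 0.34, adjusted p = 0.0032). Of 11 smooth muscle markers 3 rose and 0 fell, with 4 rises and 2 falls in the 1-digit (median -0.35) and 6 and 1 in the 3-digit libraries (median 1.12). Between the kinds of library 8 of 11 smooth muscle markers were higher in the 3-digit libraries, where their sum was 592 and 508 CPM, against 325, 412 and 381 in the 1-digit libraries and 161, 155, 156 and 186 at day 0. In the 1-digit libraries the sum was above all of day 0, while the median log2 fold change of the members was below 0. Podocyte markers gave 3 rises and 2 falls among 15, under the 23.3% higher and 18.7% lower of all genes. Fibroblast and pericyte markers gave 2 (1 without day 1 replicate 2) and 2 among 17, also under these shares. In the 1-digit libraries they gave 2 rises and 3 falls, beside 28.9% and 29.6% of all genes. In the 3-digit libraries they gave 7 and 1, beside 22.6% and 19.0%.

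Proximal tubule genes parted the kinds of library as well. Of 20 markers 5 fell and 0 rose over all 5 libraries, beside 18.7% and 23.3% of all genes. In the 3-digit libraries 14 fell (median -1.85), beside 19.0% of all genes. In the 1-digit libraries 6 fell (median -0.28), near the share of 29.6% there. The direct test between the kinds called 11 lower with 3 digits and 0 higher. Slc34a1, the sodium-phosphate carrier of the brush border, was at 5387, 4534, 4306 and 4875 CPM at day 0, 817 and 402 in the 3-digit and 6401, 4343 and 4182 in the 1-digit libraries, and the difference was -3.03 ± 0.54 (adjusted p = 0.0015). The glucose carrier Slc5a2 was at 388–494 CPM at day 0, 314 and 150.2 (3-digit) and 952, 775 and 761 (1-digit) at day 1 (difference -1.84, adjusted p = 0.015). Gatm, the first enzyme of creatine synthesis, was at 1038, 913, 928 and 1237 CPM at day 0, 23.5 and 37.7 (3-digit) and 580.5, 126 and 403 (1-digit) at day 1 (difference -3.59, adjusted p = 0.024). The sum of the markers was 92677, 92174, 93881 and 89296 CPM at day 0, 64083 and 46093 in the 3-digit and 109719, 88403 and 87122 in the 1-digit libraries.

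Some proximal tubule genes fell in all 5 libraries. Lrp2 and Cubn encode megalin and cubilin, the receptors that take up filtered protein. Lrp2 fell from 3275, 3086, 3192 and 3436 CPM to 433 and 556 (3-digit) and 1344, 663 and 651 (1-digit) at day 1 (-2.15 ± 0.60, adjusted p = 0.011) and Cubn from 464–588 to 107–264 (-1.60, adjusted p = 0.012). The brush border peptidase Mme fell from 237–334 to 54–69.1 CPM (-2.23 ± 0.26, adjusted p = 4.1e-05). On the list of megalin-cubilin endocytosis 3 rose and 4 fell of 16, near the 23.3% and 18.7% of all genes.

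Many genes of the loop of Henle and the distal tubule fell in both kinds of library. Of 21 markers 13 fell and 1 rose (median -1.23, 2 rises without day 1 replicate 2), with 13 falls in the 1-digit and 14 in the 3-digit libraries against day 0. Slc12a1, the NKCC2 carrier that furosemide blocks, fell from 1671, 2100.2, 2060.0 and 1275 CPM to 109.7 and 117 (3-digit) and 145, 151 and 215 (1-digit) at day 1 (-3.59 ± 0.65, adjusted p = 8.4e-04), 12.1-fold. Egf, made by the distal nephron, fell from 2006, 1989, 2052 and 1931 to 104 and 46.1 (3-digit) and 517, 381 and 482 (1-digit) at day 1 (-2.70 ± 0.76, adjusted p = 0.012), further in the 3-digit libraries (difference -2.62, adjusted p = 0.011). The calcium exchanger Slc8a1 fell from 127–178 to 16.1–45.2 CPM (-2.53 ± 0.35, adjusted p = 1.5e-04). Umod fell less (-0.57, adjusted p = 0.041), and the call was lost without any one of day 0 replicates 1 to 3 or of day 1 replicates 2 to 4 (values from -0.60 to -0.48, adjusted p from 0.059 to 0.11). Slc12a3, the thiazide-sensitive carrier, was at 317–528 CPM before and 233 and 251 (3-digit) and 460.0, 400.0 and 389 (1-digit) after and did not pass (adjusted p = 0.58).

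In the collecting duct 5 of 15 principal cell and 8 of 16 intercalated cell markers fell and 0 rose. Of the principal cell markers 9 fell in the 1-digit and 3 in the 3-digit libraries, beside 29.6% and 19.0% of all genes. The 3-digit count was near the share of all genes. Slc4a1, the anion exchanger of acid-secreting cells, fell from 62.1, 58.3, 64.2 and 47.8 CPM to 5.66 and 6.09 (3-digit) and 7.63, 6.8 and 10.4 (1-digit) (7.97-fold, adjusted p = 7.1e-04). Aqp2 was at 374, 358, 462 and 655 at day 0, 449 and 496 in the 3-digit and 177, 172 and 284 in the 1-digit libraries, where it fell (-1.13, adjusted p = 0.021). Kl, which encodes klotho, the coreceptor of the phosphate hormone FGF23, fell from 846, 711, 764 and 815 to 126 and 147 (3-digit) and 417, 248 and 275 (1-digit) at day 1 (-1.69 ± 0.46, adjusted p = 0.0099), and on its list 6 genes fell and 3 rose of 14 (1 rise without day 0 replicate 4). The calcium channel Trpv6 was among the rises, from 0.948–2.06 to 2.69–14.4 CPM (adjusted p = 0.0053). The paracellular channel gene Cldn10 fell by 2.97-fold (adjusted p = 0.0027). Of 21 transcription factors of the tubule 12 fell and 1 rose. Irx1, a homeodomain factor of the developing loop, fell from 64.8, 70, 75.2 and 76.3 to 14.5 and 14.2 (3-digit) and 2.59, 5.54 and 6.19 (1-digit) CPM (-3.04 ± 0.45, adjusted p = 2.2e-04), and Hnf4a, the regulator of proximal tubule identity, from 818–1067 to 342–548 (-1.02 ± 0.20, adjusted p = 0.0013).

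Among transporters as a class 87 of 299 solute carriers fell and 42 rose, beside 18.7% and 23.3% of all genes. Organic ion and drug transporters gave 8 falls and 2 rises among 24. Slco4c1, a carrier of thyroid hormone and digoxin, went from 16.6, 20.5, 22 and 14.2 CPM to 0.0539, 0.5, 0.136, 0 and 0.0804 in replicates 1 to 5 of day 1 (-6.71 ± 0.83, adjusted p = 6.2e-05), the largest fall by the naming rule. The amino acid carrier Slc7a12 fell from 18.9–62.3 to 0.108–1.02 CPM (-6.16, adjusted p = 8.3e-04) and the anion carrier Slc22a26 from 62.1–86.1 to 0.743–4.53 (-5.18, adjusted p = 3.3e-04). Slc22a8, the organic anion transporter OAT3, fell in the 3-digit libraries (168 and 101 CPM against 451–600.5 at day 0, adjusted p = 0.0013) and was at 622, 458 and 416 in the 1-digit libraries. Slc7a5, which imports large neutral amino acids, rose in all 5 libraries, from 1.64–3.51 to 14.2–20.9 CPM (2.64 ± 0.22, adjusted p = 3.9e-06). Other genes among the 10 largest falls were the adhesion molecule Ceacam2 (from 43.9–71.1 to 0.0681–1.14 CPM), the glycosyltransferase A4gnt (from 18.1–25.7 to 0.0539–0.886) and the tenascin Tnn (from 23.4–54.7 to 0.0681–0.857). Apob, the apolipoprotein B, fell from 37.2–163 to 0.114–3.95 CPM and the vesicle protein Rph3a from 6.5–9.18 to 0–0.322. The potassium channel subunit Kcng1 was at 3.05, 3.12, 3.54 and 6.65 CPM at day 0 and had at most 3 reads in a day 1 library, at least 22.3-fold lower, and the mitochondrial carbonic anhydrase Car5a was at 2.7, 3.12, 4.11 and 1.69 with at most 1 read at day 1, at least 15.9-fold lower.

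**Figure D4:**
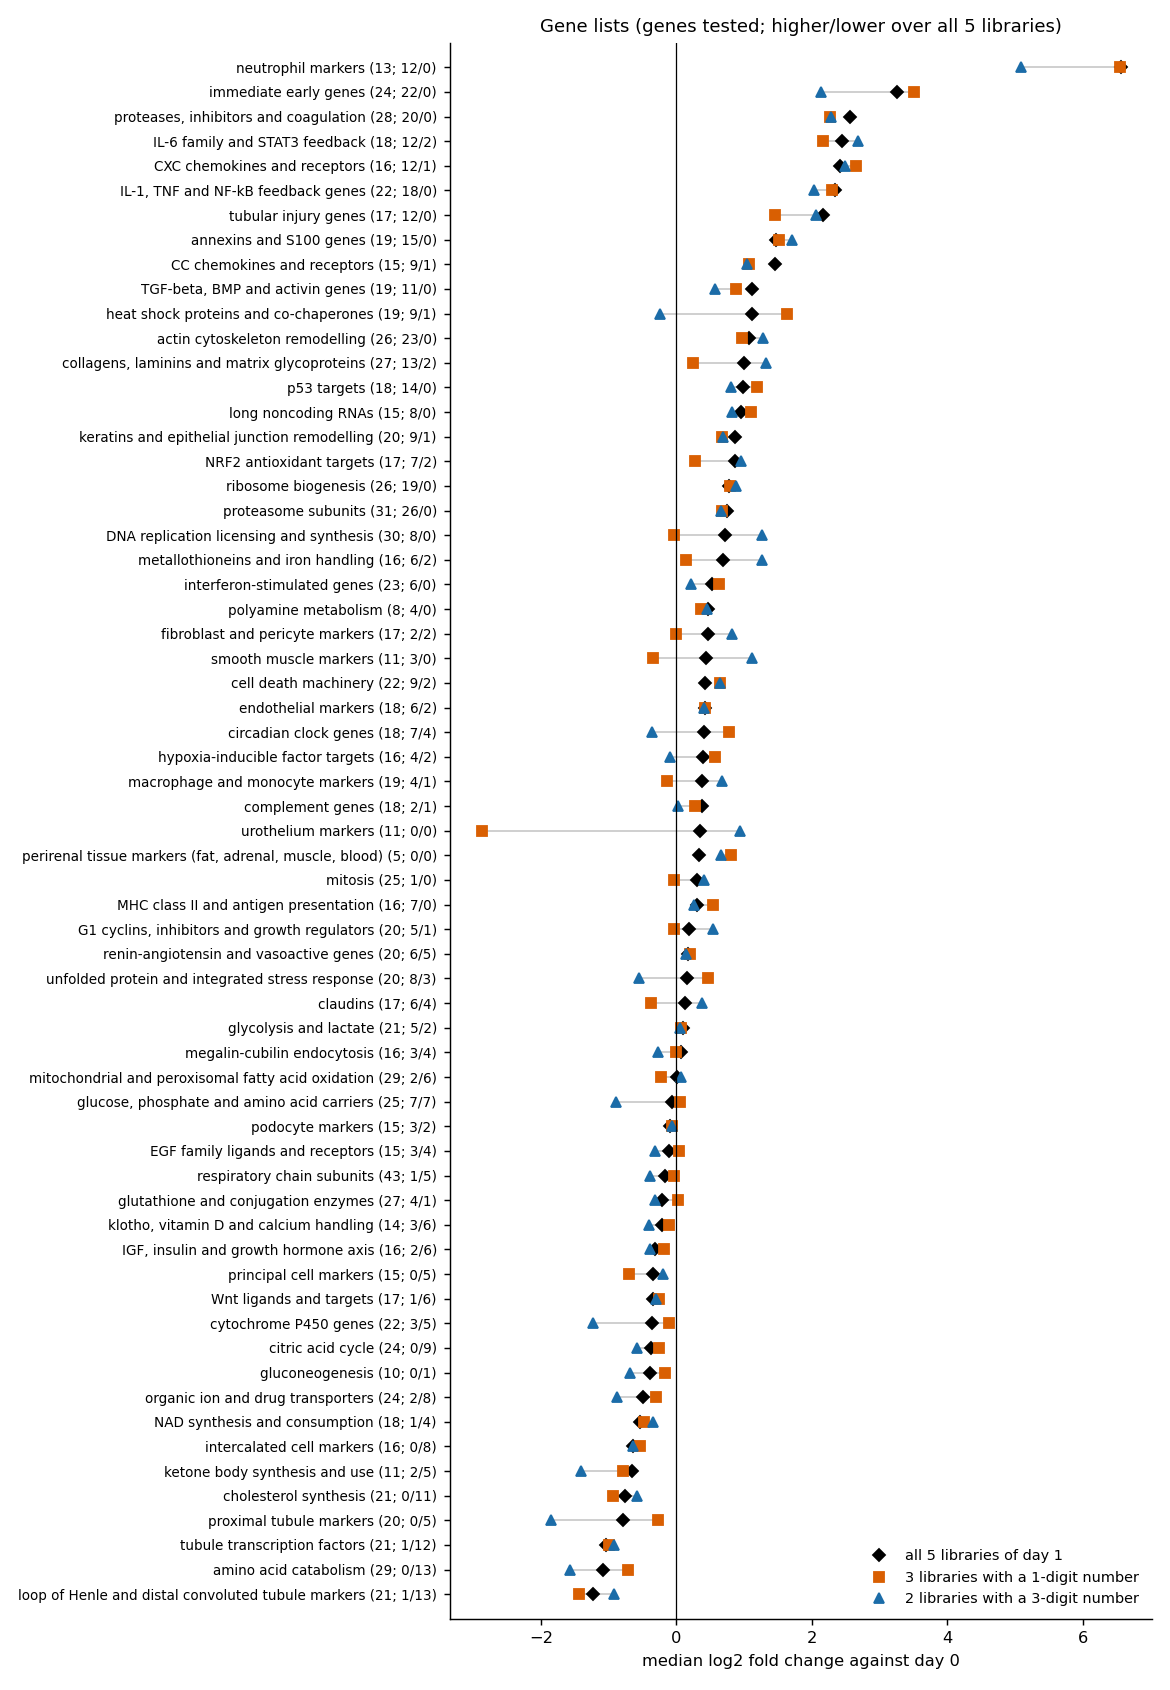
Median log2 fold change against day 0 of 63 gene lists with at least 5 genes tested, for all 5 libraries of day 1 (black diamonds), its 1-digit libraries (orange squares) and its 3-digit libraries (blue triangles). Behind each name stand the genes tested and the numbers called higher and lower. Over all 5 libraries neutrophil and immediate early genes lie highest and loop of Henle and amino acid catabolism genes lowest. Urothelium markers lie lowest in the 1-digit and proximal tubule markers in the 3-digit libraries, and the 2 kinds of library lie on opposite sides of 0 for several lists, among them heat shock, urothelium, smooth muscle and clock genes.

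Amino acid catabolism gave 13 falls and 0 rises among 29 (median -1.08), with 26 falls in the 3-digit and 16 in the 1-digit libraries. Bcat1, which starts the breakdown of branched-chain amino acids, fell from 112, 163, 81.9 and 289 CPM to 18.8 and 43.5 (3-digit) and 2.04, 1.94 and 4.99 (1-digit) at day 1 (-3.49 ± 0.82, adjusted p = 0.0042). Cholesterol synthesis gave 11 falls and 0 rises among 21 (median -0.76), with Cyp51 at 368, 308, 402 and 307 CPM before and 41.8 and 35.5 (3-digit) and 108, 88.9 and 112 (1-digit) after (-2.17 ± 0.39, adjusted p = 8.7e-04). Fatty acid oxidation, the main fuel of the proximal tubule, gave 6 falls and 2 rises among 29 (4 and 0 without day 0 replicate 4), a share of falls near the 18.7% of all genes. The 1-digit libraries gave 7 falls and 1 rise (median -0.22), the 3-digit libraries 9 falls and 9 rises (median 0.07), and 9 genes were higher and 3 lower with 3 digits than with 1. Acadm, the medium-chain acyl-CoA dehydrogenase, fell in all libraries, from 1161, 1288, 1262 and 1509 to 476 and 394 (3-digit) and 612, 483 and 473 (1-digit) CPM (-1.42 ± 0.22, adjusted p = 2.7e-04). On the list of ketone body synthesis and use 5 genes fell and 2 rose of 11 (1 rise without day 0 replicate 4). Bdh1, which interconverts the ketone bodies, fell from 331–383 to 74–127 CPM (-1.86 ± 0.26, adjusted p = 1.4e-04) and the monocarboxylate carrier Slc16a7 from 84.2–108 to 16.5–27.3 (-2.20 ± 0.15, adjusted p = 1.2e-06).

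The citric acid cycle gave 9 falls and 0 rises among 24, but 5 falls without day 0 replicate 4 and 5 without day 1 replicate 2. Against day 0 9 fell in the 1-digit and 17 in the 3-digit libraries. Ogdh, the oxoglutarate dehydrogenase, fell from 877–984 to 338–591 CPM (-1.09, adjusted p = 0.0058). Respiratory chain subunits gave 5 falls and 1 rise among 43 (3 falls and 3 rises without day 1 replicate 2). Both shares lay under the 18.7% lower and 23.3% higher of all genes. In the 1-digit libraries 8 rose and 3 fell, beside 28.9% and 29.6% of all genes. In the 3-digit libraries 0 rose and 15 fell, beside 22.6% and 19.0%. Ndufs1 of complex I fell (-0.92 ± 0.20, adjusted p = 0.0026) and the small subunit Ndufa2 rose (0.51 ± 0.16, adjusted p = 0.019). Ndufa2 gave 0.68 with 1 digit (adjusted p = 9.5e-04) and 0.20 with 3 digits (adjusted p = 0.32). In glycolysis 5 genes rose and 2 fell of 21 (3 rises without day 0 replicate 4, 4 falls without day 1 replicate 2), a share of rises near the 23.3% of all genes. Hk2, the inducible hexokinase, rose from 0.403, 0.883, 0.379 and 1.15 CPM to 9.38 and 13.4 (3-digit) and 3.61, 4.86 and 9.89 (1-digit) at day 1 (3.54 ± 0.49, adjusted p = 1.5e-04) and the phosphofructokinase Pfkm fell from 57.9–67.5 to 16.6–35.4 (-1.20, adjusted p = 8.1e-04). The phosphatase G6pc, the last step of gluconeogenesis, fell from 544, 451, 615 and 1029 to 75.1 and 24.3 (3-digit) and 292, 95.2 and 180.3 (1-digit) at day 1 (-2.31 ± 0.61, adjusted p = 0.0087). Pck1, its entry step, was at 3119.6–3718 CPM at day 0, 4520.3 and 2911 in the 3-digit and 1832, 1028 and 1009 in the 1-digit libraries, where it fell (-1.41, adjusted p = 0.0067).

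Among cytochromes P450 on the list 5 fell and 3 rose of 22, with 14 falls in the 3-digit and 6 in the 1-digit libraries, beside 18.7%, 19.0% and 29.6% of all genes lower in these comparisons. Cyp4a14, a fatty acid hydroxylase that responds to PPARα, was at 7.71, 6.53, 19.1 and 9.55 CPM at day 0, 561 and 613 in the 3-digit and 81.6, 14.4 and 12.1 in the 1-digit libraries, and differed between the kinds by 4.03 ± 0.99 (adjusted p = 0.0078). Cyp7b1, an oxysterol hydroxylase, fell from 287, 405, 281 and 393 to 39.8 and 21.6 (3-digit) and 2.86, 4.4 and 6.03 (1-digit) at day 1 (-4.51 ± 0.70, adjusted p = 3.1e-04). The glutathione transferase Gsta1 rose from 0.19–0.786 to 1.98–13.6 CPM (4.25, adjusted p = 0.0064). The polyamine enzymes Sat1 and Smox rose by 1.80 ± 0.35 and 2.78 ± 0.33 (adjusted p = 0.0014 and 4.8e-05), with 4 of 8 genes of the list higher (2 without day 0 replicate 4).

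The genes that make ribosomes and break down proteins rose together, by small steps. Of 80 cytosolic ribosomal protein genes 73 rose and 0 fell, with a median log2 fold change of 0.79, which was 0.75 in the 1-digit and 0.82 in the 3-digit libraries. Ribosome biogenesis gave 19 rises and 0 falls among 26 (median 0.77). The nucleolar proteins Ncl and Nop58 rose by 1.09 ± 0.16 and 1.68 ± 0.23 (adjusted p = 1.9e-04 and 1.2e-04), Ncl from 284, 299, 292 and 296 to 655 and 585 (3-digit) and 511, 667 and 690.1 (1-digit) CPM. Of 31 proteasome subunits 26 rose and 0 fell (median 0.74), and Psmd8 went from 137–142 to 242–409.6 CPM (1.20 ± 0.22, adjusted p = 9.0e-04). Translation initiation factors gave 32 rises and 3 falls among 52, spliceosome proteins 18 and 0 among 30 and DEAD-box RNA helicases 19 and 1 among 35. Ribosomal proteins of mitochondria did not share this, with 11 rises and 7 falls among 77 and a median of -0.02. Zinc finger genes named Zfp went the other way, 116 of 339 lower and 33 higher (median -0.46), as did histone genes (8 of 20 lower, 1 higher) and Hox genes (10 of 33 lower, 2 higher). Of the Zfp genes 184 were lower and 51 higher in the 1-digit libraries, beside 29.6% and 28.9% of all genes. In the 3-digit libraries 65 were lower and 20 higher, beside 19.0% and 22.6%, and the direct test called 109 higher and 35 lower with 3 digits. The median of all genes was 0.01, and counting without TMM moved it to -0.01.

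**Figure D5:**
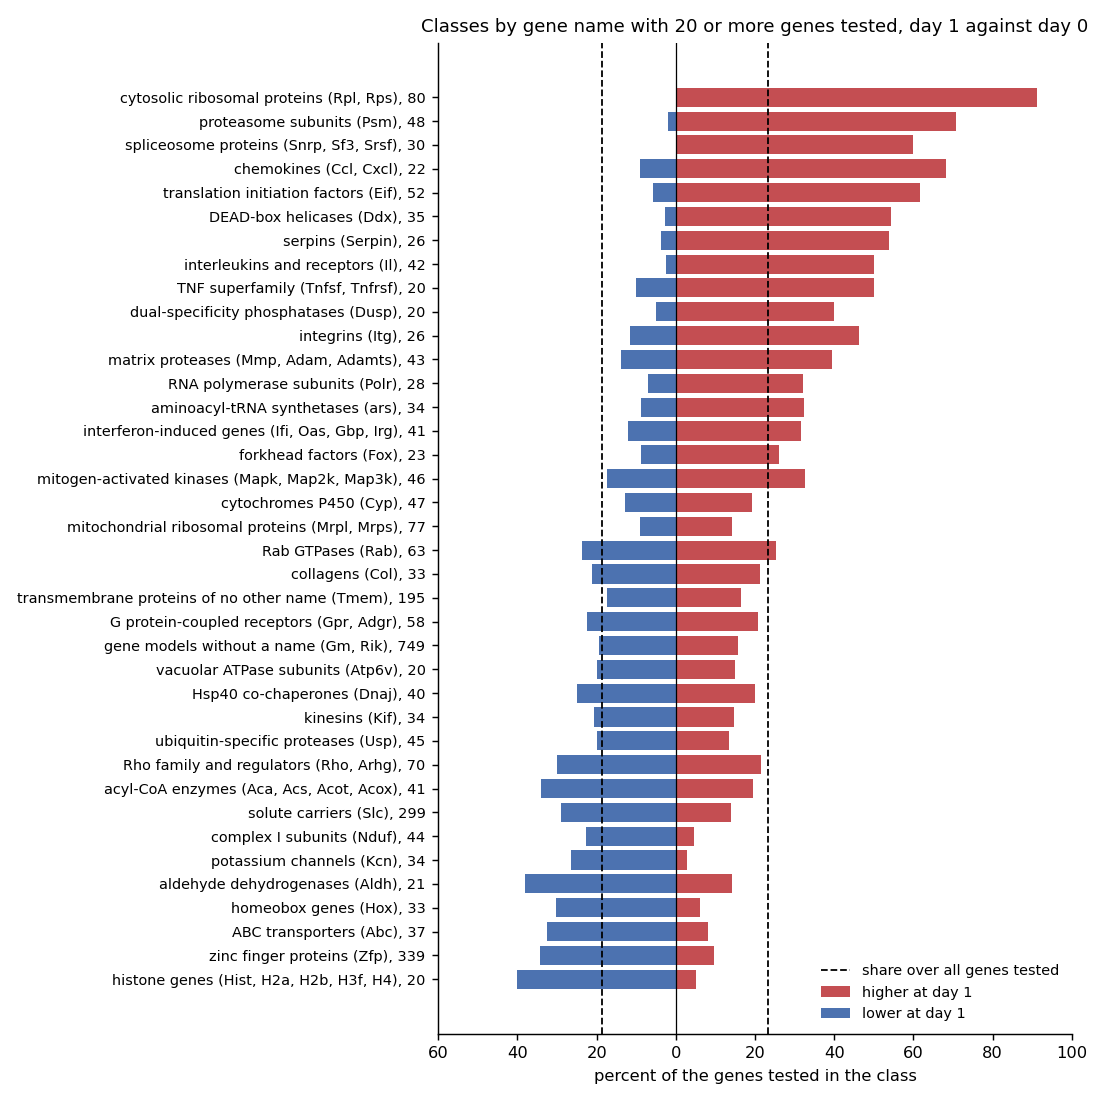
Percent of the genes tested in each class by gene name that were higher (red, right) or lower (blue, left) at day 1 against day 0, for classes with at least 20 genes tested, whose number follows the name. The dashed lines mark the shares over all genes, 23.3% higher and 18.7% lower. Cytosolic ribosomal proteins (73 of 80) and proteasome subunits (34 of 48) had the highest shares of rises, and histone genes (8 of 20) and aldehyde dehydrogenases (8 of 21) the highest shares of falls.

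Few mitosis genes passed the test, and genes of DNA replication parted the kinds of library. The mitosis genes summed to 90, 53, 80.7 and 35.1 CPM at day 0 and to 52.5–112 at day 1. Their median of 0.31 was -0.07 without day 1 replicate 2 and -0.60 with the number format as a term. Of 25 mitosis genes 1 rose and 0 fell. This was Kif23, a kinesin of cell separation, at 3.45, 3.35, 3.92 and 3.75 CPM before, 4.47 and 5.95 in the 3-digit and 16.8, 24.9 and 19.7 in the 1-digit libraries (1.98 ± 0.45, adjusted p = 0.0037). Kif23 did not pass where only the 3-digit libraries of days 1 and 3 were kept beside day 0 (0.53, adjusted p = 0.0996). DNA replication genes gave 8 rises and 0 falls among 30 (5 rises without day 0 replicate 4), near the 23.3% of all genes higher. Their median was -0.03 in the 1-digit and 1.26 in the 3-digit libraries. Against day 0 the 1-digit libraries gave 7 rises and 3 falls, beside 28.9% and 29.6% of all genes. The 3-digit libraries gave 20 and 1, beside 22.6% and 19.0%, and the direct test called 15 higher with 3 digits. Their summed level was 522, 374, 429 and 310.0 CPM at day 0, 464 and 1037 in the 3-digit and 432, 452 and 435 in the 1-digit libraries, so that day 1 replicate 2 stood above all others. Orc1, which marks replication origins, rose from 0.302–0.575 to 1.19–3.77 CPM (2.19 ± 0.47, adjusted p = 0.0025). Mcm2, a subunit of the replicative helicase, was at 31.3, 21.3, 23.9 and 18.1 CPM at day 0, 28.5 and 79.1 in the 3-digit and 19.6, 21.1 and 20.5 in the 1-digit libraries, so that 1 library stood apart. Of 20 G1 cyclins, inhibitors and growth regulators 5 rose and 1 fell, a share of rises near the 23.3% of all genes.

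Many genes of secreted signals and of the matrix rose. The list of proteases, inhibitors and coagulation gave 20 rises and 0 falls among 28 (median 2.56). Timp1, an inhibitor of matrix proteases, rose from 0–0.53 to 44.3 and 52.4 (3-digit) and 10.3, 15.6 and 29 (1-digit) at day 1 (7.24 ± 0.84, adjusted p = 4.1e-05). TGF-beta, BMP and activin genes gave 11 rises and 0 falls among 19, with Tgfb1 at 8.24–9.92 CPM before and 13.8–28.8 after (1.32 ± 0.27, adjusted p = 0.0018). Collagens, laminins and matrix glycoproteins gave 13 rises and 2 falls among 27. The ubiquitous basement membrane chain Col4a1 rose from 236–253 to 660.1–845 CPM (1.60 ± 0.26, adjusted p = 4.6e-04), and Col4a3, a chain of the glomerular basement membrane, fell from 247–303 to 86.1–133 (-1.46 ± 0.28, adjusted p = 0.0012).

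In the insulin-like growth factor axis 6 genes fell and 2 rose of 16. Igf1 fell from 8.47–13.7 to 1.7–4.09 CPM (-1.94 ± 0.34, adjusted p = 6.7e-04), and of its binding proteins Igfbp5 fell (-2.02 ± 0.20, adjusted p = 1.4e-05) and Igfbp3 rose (2.15 ± 0.63, adjusted p = 0.014). Wnt ligands and targets gave 6 falls and 1 rise among 17 (2 rises without day 0 replicate 4). The Wnt antagonist Sfrp1 fell from 152–196 to 16.3–33.8 CPM (-2.59 ± 0.39, adjusted p = 2.5e-04) and the transcription factor Tcf7 rose from 0.316–0.847 to 1.13 and 1.64 (3-digit) and 6.34, 14.5 and 9.57 (1-digit) at day 1 (3.35 ± 0.78, adjusted p = 0.004). Tcf7 did not pass where only the 3-digit libraries of days 1 and 3 were kept beside day 0 (1.11, adjusted p = 0.17). Areg, an EGF receptor ligand of wounded epithelia, had at most 1 read at day 0 and 0.539–2.59 CPM at day 1, at least 8.87-fold higher. Vgf, a secreted neuropeptide precursor, had at most 1 read at day 0 and 4.36–17 CPM at day 1, at least 63.5-fold higher.

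Clock genes parted the kinds of library, with 9 of 18 lower and 0 higher with 3 digits than with 1. Of 18 genes 10 rose and 3 fell in the 1-digit libraries, and 3 rose and 7 fell in the 3-digit libraries. Nr1d1, the clock repressor REV-ERBα, was at 5, 2.59, 3.79 and 7.74 CPM at day 0, 29.1 and 29.4 (3-digit) and 487, 258 and 417 (1-digit) at day 1 (5.67 ± 0.94, adjusted p = 4.9e-04), and the difference between the kinds was -3.73 ± 0.48 (adjusted p = 2.7e-04). Per1, a clock gene that glucocorticoids and stress also induce, was at 35.6–47.1 CPM at day 0, 63.4 and 48.2 (3-digit) and 276, 206 and 248 (1-digit) (difference -2.12, adjusted p = 3.6e-04). Hlf, an output of the clock, fell in both, from 129.8–163 to 25.8–70.3 CPM (-1.83 ± 0.32, adjusted p = 7.7e-04). The hours at which the kidneys were taken are not given in the sources used here. Of 15 long noncoding RNAs 8 rose and 0 fell, with the snoRNA host gene Snhg5 at 2.77–4.03 CPM before and 14.9–35.8 after (2.91 ± 0.28, adjusted p = 1.3e-05) and Malat1 rising by 0.95 ± 0.26 (adjusted p = 0.011). In the 3-digit libraries alone Malat1 did not pass (0.67, adjusted p = 0.084).

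The naming rule took the 5 genes in each direction that parted the 2 kinds of day 1 library most. Higher in the 1-digit libraries were Hspa1a, the apolipoprotein L family member Apol8 (10.8, 5.83 and 9.73 CPM against 0 and 0.0908), Mansc4 (1.43, 0.4 and 0.965 against 0 and 0), the corneal keratin Krt12 (14.2, 40.4 and 22 against 0.539 and 0.318) and Cntnap5a (2.45, 1.54 and 1.29 against 0.0539 and 0). Apol8 and Krt12 were at or below 1 read at day 0, whereas Mansc4 and Cntnap5a were at 0.786–3.28 and 1.65–3.87 CPM there. Higher in the 3-digit libraries were Krt14 (4.04 and 16.1 against 0, 0 and 0.0804), the gasdermin Gsdmc2 (1.24 and 10.1 against 0.0681, 0 and 0.0804), Sprr2a3, Sptssb and Fcgbp. Against day 0, Gsdmc2 gave -6.13 (adjusted p = 0.0022) where only the 1-digit libraries of days 1 and 3 were kept. Where only the 3-digit ones were kept beside day 0, Gsdmc2 gave 0.59 (adjusted p = 0.71). In the same order Krt14 gave -3.23 (adjusted p = 0.29) and 5.12 (adjusted p = 0.0029). Krt14 is a keratin of basal cells of stratified epithelia and one of the urothelium markers, whose sum was highest in day 1 replicate 2. The gene model 1700001F09Rik, among the 10 largest rises over all 5 libraries, had no read at day 0, 9.21 and 12.7 CPM in the 3-digit and 0.409, 1.37 and 0.563 in the 1-digit libraries. The genes that parted the kinds were picked for that difference, and Krt14 is also a urothelium marker. Summed urothelium markers were at 34.4 CPM in day 1 replicate 1, within the range of day 0, and at 146 in replicate 2. Their part in the genes higher in the 3-digit libraries was not tested.

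The counts of the remaining lists stand beside 23.3% higher and 18.7% lower over all genes. Of 16 genes of MHC class II and antigen presentation 7 rose and 0 fell, and of 20 renin-angiotensin and vasoactive genes 6 rose and 5 fell. Carriers of glucose, phosphate and amino acids gave 7 rises and 7 falls among 25, with 11 lower with 3 digits than with 1. EGF family genes gave 3 rises and 4 falls among 15, claudins 6 and 4 among 17, and glutathione enzymes 4 and 1 among 27. Of 16 genes of metallothioneins and iron handling 6 rose and 2 fell, with 4 and 4 in the 1-digit and 8 and 2 in the 3-digit libraries. Of 18 genes of NAD synthesis and use 1 rose and 4 fell (2 falls without day 0 replicate 4, 2 rises without day 1 replicate 2). Gluconeogenesis gave 0 rises and 1 fall among 10. Markers of tissue around the kidney (fat, adrenal, muscle and blood) gave 0 calls among 5 (2 rises without day 0 replicate 4), with a summed level of 23.5, 28.9, 21.7 and 84.9 CPM at day 0, 45 and 40.9 in the 3-digit and 31.6, 40.2 and 45.7 in the 1-digit libraries, highest in day 0 replicate 4.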

How the data were processed

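Total RNA of mouse kidneys was extracted with TRIzol and sequenced from Illumina TruSeq libraries. According to the submitters' processing notes, reads were trimmed with Trimmomatic and aligned with STAR to mm10, with no versions given. The deposited values are raw read counts per gene as the authors' STAR runs wrote them, for 24411 gene symbols. The column of strand-specific counts was used that held 98.5 to 98.7% of the reads of both strands together, and 4 rows that name no gene, with 34.3 to 38.3% of that column, were left out.

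Genes were tested with edgeR 4.0.16 (quasi-likelihood test, R 4.3.3) on the counts of all 14 libraries, which share 1 estimate of the spread, with a term for each day, the filterByExpr filter, TMM scaling and Benjamini-Hochberg adjustment over the 14300 genes left. A model with a term for each day and library number format gave the 1-digit and 3-digit comparisons and their difference. The main text's methods name no test for the sequencing counts, and the supplementary methods were not used here. The SE after a ± sign was not fitted itself. It is the absolute log2 fold change divided by the square root of the F statistic of the quasi-likelihood test. CPM values were computed from the same library sizes. Genes of at most 3 counts in every library of a group are given as at least a fold against 3 counts per library. Such bounds and all p-values cover counting error and the spread between these libraries only.

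The comparison, the 64 gene lists (1315 entries, 1252 different genes in the files, 1177 tested, 57 in more than 1 list) and the 58 classes by gene name were chosen with earlier results of these data known. Genes were named by a rule that took the key genes of each list, its largest rise and fall, the 10 largest rises and falls over all genes with groups that do not overlap and a mean of at least 1 CPM, and the 5 largest differences between the kinds of library in each direction. Of 229 genes so named those that describe a list best are given. No pair of libraries within day 0 or within day 1 differed by less than sampling noise (chi-square over degrees of freedom from 5.94 to 241). Alternatives were DESeq2 1.42.0, scaling by RLE size factors or by total counts, counts without regard to strand, no filter or 10 counts or more per library, a minimum fold (log2 of 1 either way), only day 0 and day 1, the replicate number or the number format as a term, 1 kind of library alone, and each library left out in turn. List counts without day 0 replicate 4 and without day 1 replicate 2 were added after seeing the data. Scripts were tested on simulated data.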

Additional observations from a re-analysis of the deposited data

Results flagged for a closer look

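A library stood apart from the others of its day, by the gap to its nearest neighbour, in 20 of 278 groups of values. A rate of 1 in 20 would give 13.9. That rate assumes normal and independent values, which groups with 1 read against none and the mixed kinds of day 1 library do not meet. Values are log2 CPM with an added count of 2. At day 0, replicate 4 stood apart in 7 genes and 1 other measure. It was high for the keratin Krt18 at 5.50 (the other libraries 3.94 to 4.19), for Fos at 3.32 (-0.39 to -0.19), for Hmox1 at 5.70 (5.09 to 5.17), for Sfrp1 at 7.62 (7.25 to 7.31) and for Tnn at 5.78 (4.55 to 4.74). In the same library Vgf and Areg were both at -2.49, which is 1 read against none in the others. Its share of reads on no gene was 13.1%, against 12.5 to 12.6% in the others. Replicate 2 of day 0 was high for Atf3 at 1.64 (0.71 to 0.79), Isg15 at 1.82 (0.74 to 0.92), the macrophage gene Adgre1 at 3.65 (0.99 to 1.18) and Rph3a at 3.22 (2.73 to 2.78). Hspa1a was low in replicate 1 at 4.05 (5.03 to 5.09), and Krt12 was at -2.51 there, 1 read against none. Replicate 3 had Ndufa2 at 7.06 (6.93 to 6.95) and Retnlg at -2.47, again 1 read against none.

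At day 1, replicate 3 was low for Anxa2 at 8.39 (9.29 to 9.56) and high for Col4a3 at 7.06 (6.43 to 6.59). Replicate 2 was high for Mcm2 at 6.31 (4.30 to 4.84), and replicate 1 had Kcng1 at -1.84, 3 reads against none. The 3-digit and the 1-digit libraries of day 1 differed in 5001 genes by the test of the difference itself.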

How the results depend on the processing

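The count of genes changed between day 1 and day 0 stayed within 1.5 times of 6020 under all alternatives but the added fold threshold, which by its construction left 2963 genes (4166 in the 1-digit and 2986 in the 3-digit libraries, 2387 for their difference). It was 6675 with DESeq2, 7997 with the number format as a term, and 4759 to 6533 with 1 library left out in turn. With 1 library left out the 1-digit libraries gave 6969 to 8204 genes and the 3-digit libraries 3420 to 6020, the low end with a lone 3-digit library that is assumed to vary like the other groups. The genes that differed between the kinds numbered 1997 to 4870, lowest without day 1 replicate 2. DESeq2 gave 8581, 6372 and 5484 for these 3.

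Libraries of the same replicate number did not deviate together (correlations of -0.06, -0.09, 0.07 and -0.05 for numbers 1 to 4), so that the numbers are not taken as pairs. With the replicate block 5162, 6491 and 4986 genes were called for day 1, its 1-digit and its 3-digit libraries, and 2507 for the difference, and Havcr1, Hspa1a and Ccl28 lost their calls.

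Over all alternatives 2581 gene values kept direction and call, 22 gained and 30 lost the call and 16 turned. The cause was not tested. Where days 1 and 3 kept their 1-digit libraries alone, Havcr1 was at -0.45, Nqo1 at -0.094, C3 at -0.44, Slc34a1 at 0.094, Slc12a3 at 0.11, Slc22a8 at 0.0091, Mcm2 at -0.18 and Krt14 at -3.23. Where they kept their 3-digit libraries, Hspa1a was at -0.63, Slc5a2 at -0.89, Aqp2 at 0.037, Pck1 at 0.12 and Gsdmc2 at 0.59. With the number format as a term C3 was at -0.40 and Mcm2 at -0.13, and with 1 library left out Mcm2 was at -0.077 to 0.68, lowest without day 1 replicate 2. List medians moved by less than the spread between libraries 1200 times and by more 78 times. For genes of at most 3 counts in every library of a group the depth gives a bound only.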
